A study of Rattus norvegicus with 77 samples.

Results

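Transcripts of the axoneme and of its dynein arms were examined in rat sperm, as 45 genes chosen by symbol. A gene was included when its probe set (the probes of 1 transcript) carried a single gene symbol beginning with Dnah, Dnai, Dnal, Dnaaf, Rsph, Cfap, Drc or Odad, or was Armc2. Of the 15310 probe sets with 1 symbol among the 29214 on the array, 47 met this rule, and the brightest one stood for each gene, which gave 45 of the 14506 genes so named. RNA came from the cauda epididymal sperm of 77 adult male Fischer 344 rats, hybridized to Affymetrix Rat Gene 1.0 ST arrays with 1 array per rat. HD (2,5-hexanedione), a toxicant that acts on the microtubules of Sertoli cells, was given as a 0.33% solution in the drinking water for 3 months to the HD group (n = 19), while the water group (n = 20) drank plain water. The HD-recovery (n = 20) and water-recovery (n = 18) groups had the same 3 months on HD or water and were then kept for 3 further months without HD, so they were older at necropsy than the rats of the other groups. All sperm had passed through a buffer that lyses somatic cells. Purity was judged in the study by bright phase microscopy, which found no somatic contaminants, and by electrophoresis, where peaks of ribosomal RNA were absent. The values cover sperm RNA along with that of any other cells left in the pellet despite these checks.

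The axoneme is the microtubule core of the sperm tail, in which doublet microtubules surround a central pair. Dynein arms, motors built of heavy, intermediate and light chains, slide the doublets, and they are put together in the cytoplasm by assembly factors before they are docked on the doublets. Radial spokes and the nexin-dynein regulatory complex pass mechanical signals between the central pair, the doublets and the arms. The same proteins drive motile cilia of epithelia, and loss of many of them causes immotile sperm or cilia.

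Levels below are the deposited log2 intensities, and a difference of 1 is a 2-fold change. Array medians lay between 6.51 and 6.78. The mean of the 14 measured sperm and spermatid markers was between 9.73 and 11.43 on the arrays. Some arrays stood apart, with a median correlation with the other arrays of their group more than 3 scaled median absolute deviations below the group median: 4 in the HD group (replicates 3, 4, 5 and 14), 1 in the water group (replicate 20), 3 in the HD-recovery group (replicates 2, 9 and 16) and 2 in the water-recovery group (replicates 12 and 15). They were kept, and results are also given without them.

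In arrays labelled HD, 3 of the 45 transcripts were lower than in arrays labelled water, and none was higher. They were the dynein arm assembly factors Dnaaf11 and Dnaaf4, and Armc2, an armadillo repeat protein needed to build the sperm axoneme. The other 42 did not pass the test (limma, called at a q-value under 0.05, the q-value being the share of false calls expected among all those as strong). Among all 29214 probe sets 0.472% were called, and 0.455% were called as lower. All differences are given as HD minus water, by the labels. This direction is opposite to that of the study, which lists Dnaaf11 (under its older name Lrrc6) and Armc2 as elevated in treated rats. Both are on the study's list from the present arrays, so their calls here are not independent of that list. The study's PCR measurements were made on other rats and are not analysed here. They set rats after 3 months of HD against rats before exposure, with no water group of the same age. HD cannot be told apart from age in that comparison. The measurements have genes on either side of this difference. Those that passed its t-test (p under 0.05) at 3 months of exposure, Dnaaf11 among them, all have the sign of the study's arrays. Lyz2 and Dcn have the labels' sign in that PCR comparison but did not pass. Vim, Bfar, Tax1bp1, Phospho1, Dennd1a, Gas2 and Mtm1 also have the sign opposite to the study's arrays there, and none of them passed. Whether the labels or the study's sign is turned is not settled here. Turned labels would change the sign of the differences between HD and water groups of the same age. Comparisons of recovery with exposure groups, the interaction and the order of the groups would then involve other groups than those named. In bulk RNA, fewer cells of a type and less RNA per cell cannot be told apart.

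Dnaaf11, a leucine-rich repeat protein that helps to assemble dynein arms in the cytoplasm, had a level of 6.88 at the lowest, 8.14 at the median and 9.59 at the highest in the HD group. In the water group its level was 7.98, 9.27 and 9.85. The water median lay above 18 of the 19 HD arrays, 8 of which were also under the lowest water array, and the upper HD arrays overlapped the water range. Dnaaf11 thus had the largest difference of the 45, at −1.08 (SE 0.20, q = 0.0061 by limma), or 2.12-fold lower, from a mean of 9.24 ± 0.57 (SD, n = 20) to 8.16 ± 0.74 (SD, n = 19). It was called without each of the 39 arrays in turn, with differences from −1.16 to −1.01. It also had the largest spread among rats of the same group of all 45, with a pooled SD of 0.64.

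Armc2 had a level of 8.43, 8.74 and 9.38 (lowest, median and highest) in the HD group. In the water group the level was 8.69, 9.07 and 9.75. Again 18 of 19 HD arrays lay below the water median, and 7 lay below every water array. The difference was −0.39 (SE 0.08, q = 0.017 by limma), and it was called without each of the 39 arrays in turn (−0.43 to −0.36). Armc2 was the only gene here with several probe sets. Its other 2 probe sets had differences of −0.45 (q = 0.47) and −0.10 (q = 0.83), neither of which passed.

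Dnaaf4, another cytoplasmic assembly factor of dynein arms, had a level of 6.74, 7.08 and 7.43 in the HD group. In the water group the level was 7.07, 7.34 and 7.71. A total of 16 of 19 HD arrays lay below the water median and 8 below the lowest water array. The difference of −0.25 (SE 0.06, q = 0.045 by limma) was just inside the threshold, and the call was kept in only 15 of the 39 fits that left out 1 array and lost in 24. Dnaaf11, Armc2 and Dnaaf4 were also set side by side within ranges of replicate number. Among replicates 1 to 10 the differences were −1.27 for Dnaaf11, −0.49 for Armc2 and −0.36 for Dnaaf4, and among replicates 11 to 20 they were −0.89, −0.31 and −0.14, with q of at least 0.058 in these smaller fits.

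**Figure D1:**
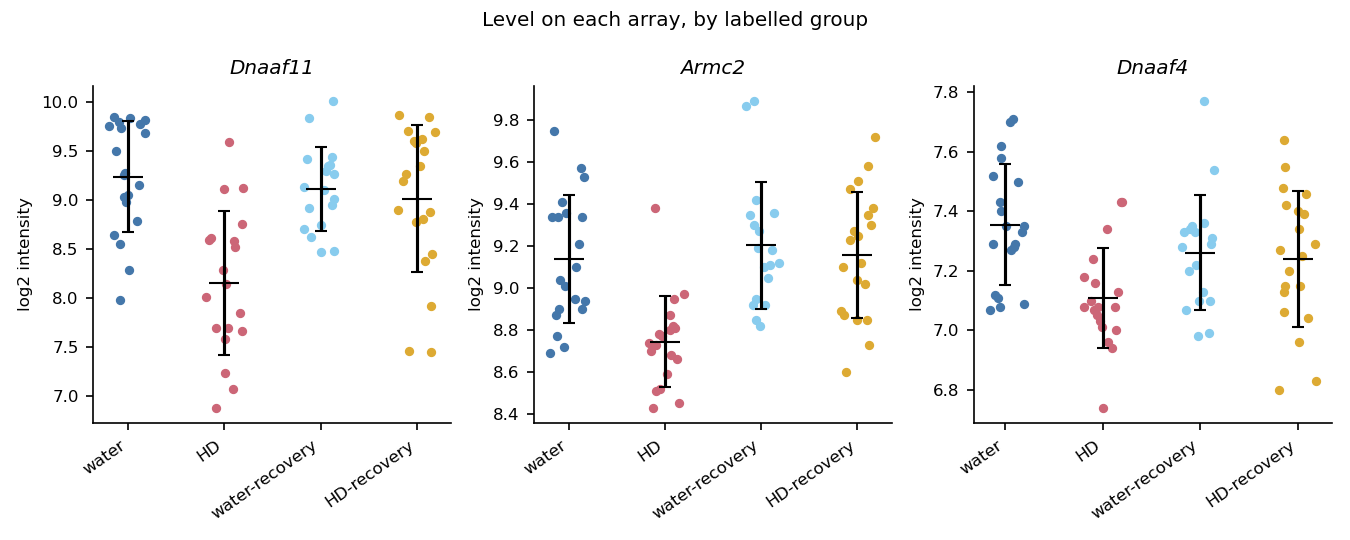
Log2 intensity (vertical axis) of Dnaaf11, Armc2 and Dnaaf4 on each array in the 4 labelled groups (horizontal axis), with 1 point per rat and black lines for the mean ± SD. The HD points lie lowest in each panel, with 18, 18 and 16 of 19 below the water median. Both recovery groups overlap the water group. The lowest HD-recovery point lies under the lowest water point in each panel, for Dnaaf11 at 7.45 against 7.98.

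The promoters are shown for the called genes that were found in the table of RefSeq promoters (assembly GRCr8), which held 38 of the 45 genes. Each window covers 250 bases before to 50 bases after the listed start of transcription. Only the first listed window of a gene was used, and Armc2 had 4 such windows and Dnaaf4 1. The sequences were searched on both strands for the X-box, the paired half-sites that RFX factors of ciliary genes bind, spelled here as GTNNCC followed after at most 3 bases by GGNNAC. This spelling was chosen after the sequences had been seen. The Armc2 window, on the minus strand at chr20:47083836-47084135, held 1 match (capitals), which began at position −55 relative to the start site, and the Dnaaf4 window, on the plus strand at chr8:82578505-82578804, held none.
Armc2: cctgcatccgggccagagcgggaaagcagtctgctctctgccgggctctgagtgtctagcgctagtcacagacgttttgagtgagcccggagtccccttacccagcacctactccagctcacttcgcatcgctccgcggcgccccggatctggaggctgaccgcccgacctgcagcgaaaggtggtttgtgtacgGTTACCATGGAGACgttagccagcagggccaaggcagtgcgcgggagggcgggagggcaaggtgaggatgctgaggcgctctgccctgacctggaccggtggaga
Dnaaf4: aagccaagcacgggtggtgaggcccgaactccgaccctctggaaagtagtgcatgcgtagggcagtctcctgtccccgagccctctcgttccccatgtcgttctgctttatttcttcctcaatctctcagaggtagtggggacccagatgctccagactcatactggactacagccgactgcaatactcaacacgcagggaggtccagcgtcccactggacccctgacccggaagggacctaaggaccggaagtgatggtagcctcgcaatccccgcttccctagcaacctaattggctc
The X-box spelling was found in 7 of the 38 windows (18.4%), those of Armc2, Cfap206, Dnaaf5, Dnaaf6, Dnah12, Dnah2 and Rsph9, and in 3.82% of all 27457 promoters of the same length. Of these 7 genes, Armc2 alone was called. The single RFX half-site GTTGCCA, which can overlap an X-box, was found in 13.2% of the windows and 4.45% of all promoters. The forkhead motif GTAAACA was found in 2.63% and 3.76%, and the cyclic AMP response element TGACGTCA in 0 of 38 windows and 1.91% of all promoters. A match is a description of the letters and not evidence of binding.

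None of the 7 dynein heavy chains passed, and their differences lay between −0.09 and 0.17. The one with the smallest p was Dnah1, an inner arm heavy chain, at 0.12 (SE 0.06, q = 0.52). Dnah11, a heavy chain known from outer arms of airway cilia, had a difference of 0.00 (SE 0.05, q = 0.99) and the smallest spread within groups (pooled SD 0.12). None of the 7 intermediate and light chains passed either (−0.39 to 0.22). Dnai1, an intermediate chain of the outer arm, had a level of 6.71, 7.06 and 7.98 in the HD group. In the water group it was 6.75, 7.49 and 8.33, and 17 of 19 HD arrays lay below the water median. Its difference was −0.39 (SE 0.13), as large as that of Armc2, but with a wider spread it did not pass (q = 0.18 by limma).

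The assembly factors held both of the called dynein genes and also members on the other side of 0. Of the 6 factors, 2 were lower and the remaining 4 did not pass in either direction, with differences from −1.08 to 0.51. Neither docking complex gene, Odad1 nor Odad4, had a difference beyond ±0.01, and Odad4, a docking protein of the outer arm, had the smaller p (q = 0.99). Of the 6 assembly factors, 3 had a negative and 3 a positive difference.

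Among the structures that tie the doublets together, none of the 6 radial spoke genes passed (−0.32 to 0.19). Rsph3, a protein of the spoke stalk, had a level of 7.01, 7.41 and 8.44 in the HD group. In the water group it was 7.32, 7.74 and 8.39, with 17 of 19 HD arrays below the water median. It had the smallest q of the transcripts that did not pass, at a difference of −0.32 (SE 0.10, q = 0.15 by limma). Rsph9, of the spoke head, had −0.22 (SE 0.09, q = 0.44). None of the 4 genes of the nexin-dynein regulatory complex passed (−0.04 to 0.28), with Drc1, a scaffold of that complex, at 0.28 (SE 0.11, q = 0.43).

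None of the 12 Cfap genes, named only as cilia and flagella associated, passed (−0.32 to 0.58), and 9 of the 12 differences were positive. Cfap206, a protein at the base of the radial spokes, had a level of 6.38, 7.36 and 10.69 in the HD group and the largest positive difference of the 45. In the water group it was 6.24, 7.05 and 7.93. The difference was 0.58 (SE 0.23, q = 0.36 by limma), and without HD replicate 5 alone it was 0.41. Cfap119 had a difference of 0.27 (SE 0.11, q = 0.36), or 0.21 without HD replicate 5.

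Over all 45 genes the median difference was 0.05, against 0.01 over all probe sets, with 17 negative and 28 positive differences. At an unadjusted p under 0.05, 21 of the 45 passed, 10 lower and 11 higher, where 8.3% of all probe sets did so, 4.91% lower and 3.4% higher. By role these were 1 of the heavy chains (higher), 4 of the intermediate and light chains (2 lower), 5 of the assembly factors (3 lower), 3 of the radial spoke genes (2 lower), 1 of the regulatory complex (higher), 6 of the Cfap genes (2 lower) and Armc2, and neither docking gene.

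**Figure D2:**
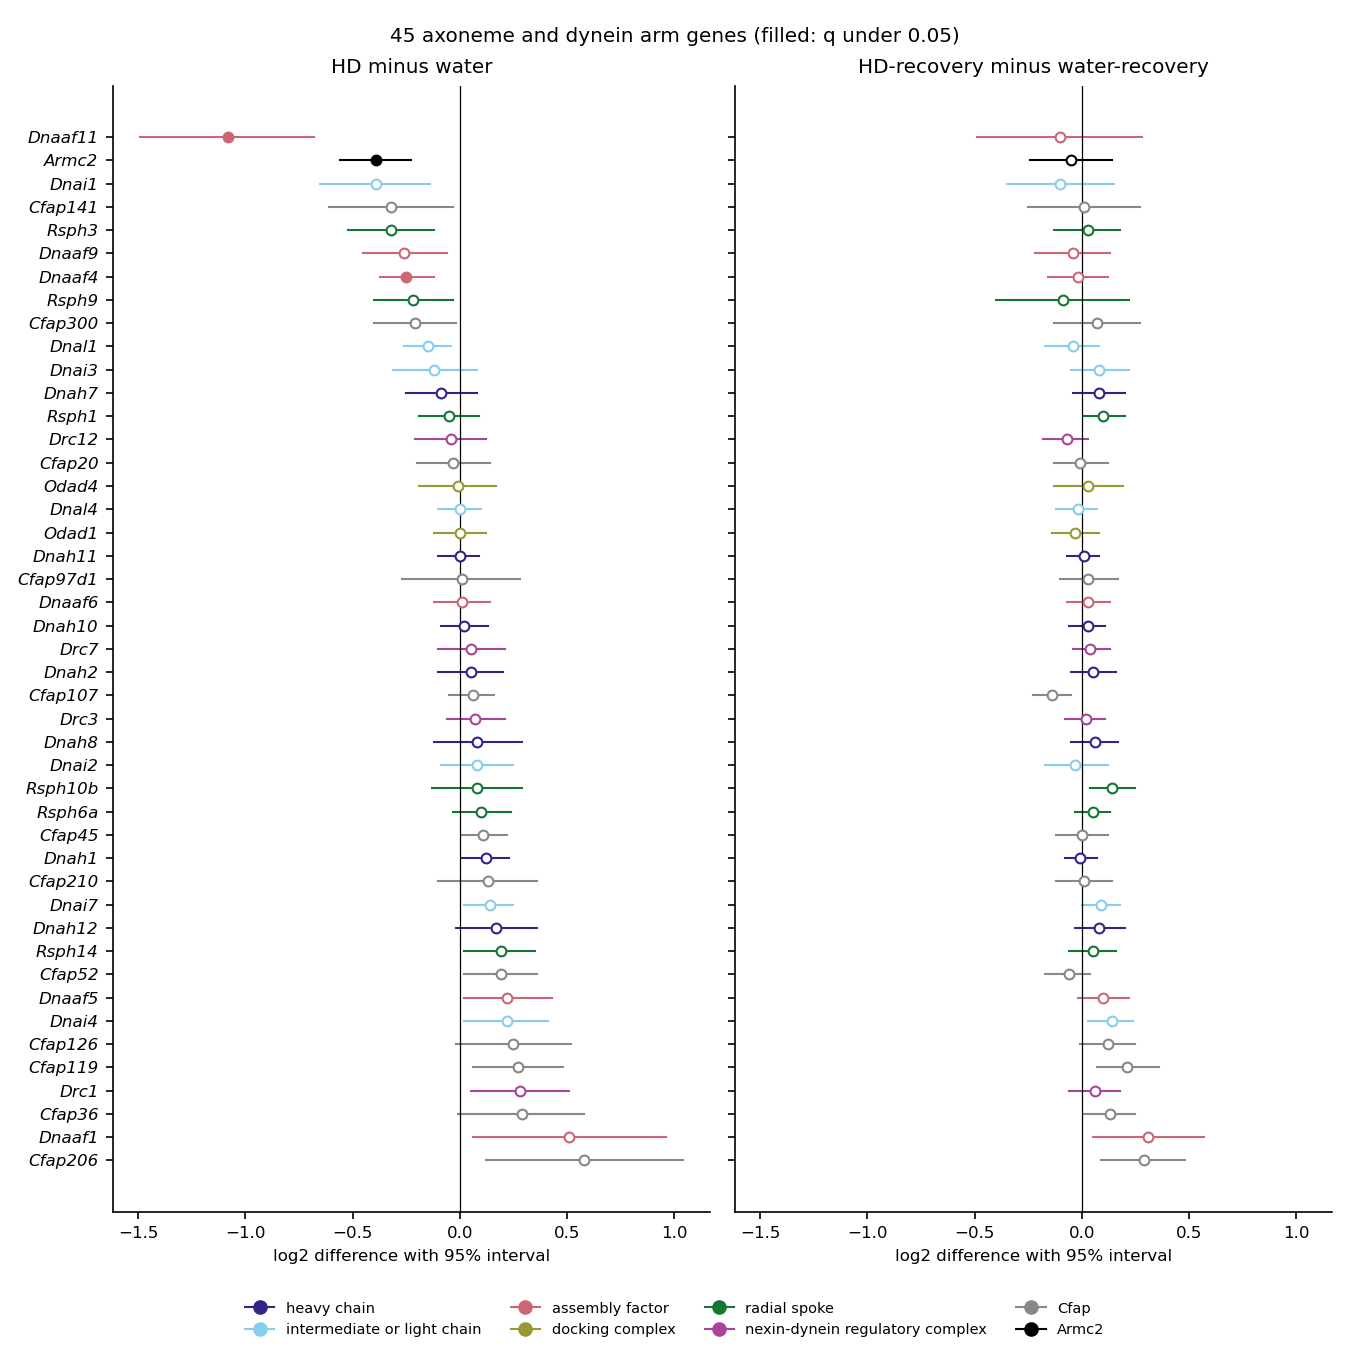
Log2 differences with 95% intervals (horizontal axes) of the 45 genes (vertical axis, ordered by the left panel) for HD minus water and for HD-recovery minus water-recovery, coloured by role, with filled points where q was under 0.05. Only Dnaaf11, Armc2 and Dnaaf4 are filled on the left, none is filled on the right, and the differences on the right lie between −0.14 and 0.31.

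HD replicate 5 had the highest level in its group for 32 of the 45 genes. Its mean over the 45 was 7.79, against a median of 6.82 over the HD arrays, and its median correlation with the other HD arrays was 0.83. Without it, 8 transcripts were called, where 1.13% of all probe sets were, and all 8 were lower: Dnaaf11, Armc2, Dnaaf4, Dnai1, Rsph3, Dnaaf9, Cfap141 and Cfap300, the last 3 being named here after their values were seen. Without all 5 HD and water arrays that stood apart, 21 of the 45 were called, 12 lower and 9 higher, where 30.2% of all probe sets were called. Dnaaf11 then had a difference of −1.32 (q = 4.7e-05), Armc2 of −0.42 (q = 4e-04) and Dnaaf4 of −0.28 (q = 0.0014), while Cfap206 was called at 0.44 (q = 0.035), Drc1 at 0.25 (q = 0.032) and Dnai1 at −0.45 (q = 0.0058), all by limma.

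**Figure D3:**
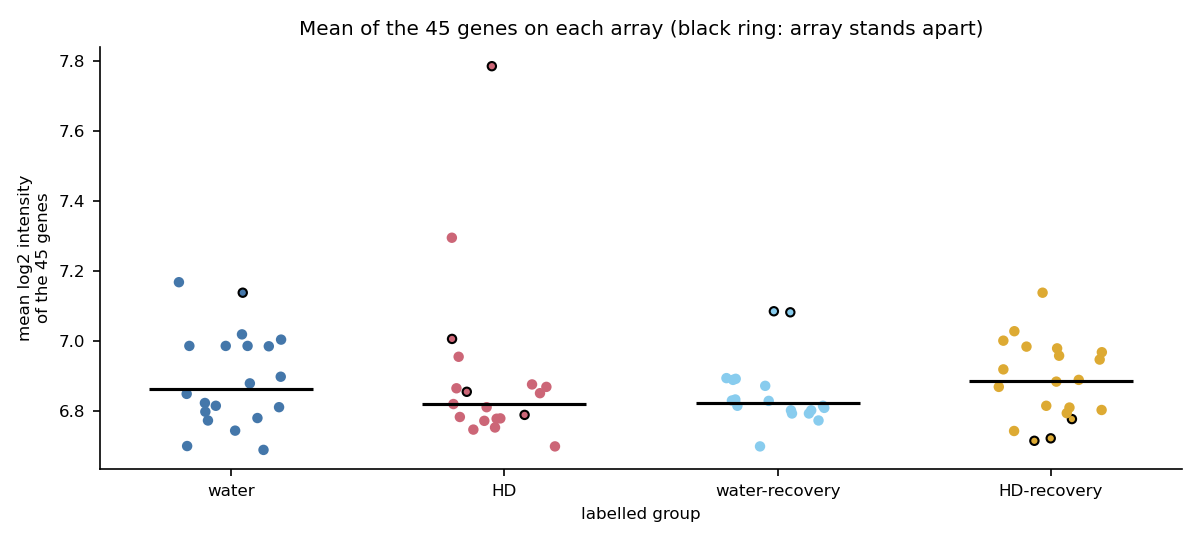
Mean log2 intensity of the 45 genes (vertical axis) on each array of the 4 groups (horizontal axis), with group medians as black lines and a black ring on arrays that stood apart. The group medians lie between 6.82 and 6.89, and HD replicate 5, at 7.79, is far above all other arrays.

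Markers of white blood cells moved with the called genes. Of 15 leukocyte markers, all measured, 5 were lower in the HD arrays (Cx3cr1, Ccr2, Cd4, Lyz2 and Fcer1g), none was higher, 14 of the 15 differences were negative and the median was −0.45. Their mean level was 7.30, 7.48 and 8.50 in the HD group (lowest, median and highest). For water arrays it was 7.43, 8.05 and 8.53, for HD-recovery arrays 7.28, 8.15 and 8.91, and for water-recovery arrays 7.38, 8.15 and 9.02. Across the arrays of a group, Dnaaf11 followed this mean, with Pearson r = 0.86 (HD), 0.84 (water), 0.92 (HD-recovery) and 0.57 (water-recovery), and Spearman rho = 0.87, 0.80, 0.92 and 0.59. The permutation p adjusted over the 12 relations was at most 0.022 for r, and without the 2 arrays farthest from the median of the marker mean r was 0.79, 0.72, 0.87 and 0.63. For Armc2 r was 0.64, 0.63, 0.81 and 0.44, the last with an adjusted permutation p of 0.075. For Dnaaf4 r was 0.51, 0.65, 0.36 and 0.51, with an adjusted permutation p of 0.12 in the HD-recovery group. These 12 relations were chosen after the data had been seen.

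With the leukocyte mean as a covariate, an alternative also chosen after the data had been seen, the Dnaaf11 difference was −0.35 (q = 0.044) in place of −1.08. The Armc2 difference was −0.18 (q = 0.079) and that of Dnaaf4 −0.11 (q = 0.12), so neither passed, while Cfap119 was called at 0.33 (q just under 0.05). In that fit 2 of the 45 were called, where 9.91% of all probe sets were. Other cell types were checked in the same way. Of 4 measured erythrocyte markers (of 7 listed) Ahsp was lower and all 4 differences were negative (median −0.39). Of 7 fibroblast markers Dcn was lower (list median −0.03), and of 14 measured sperm and spermatid markers Odf1, an outer dense fibre protein, had a called difference of −0.22 (q = 0.044), with a list median of 0.10. None of the 10 epididymal epithelium, 6 measured Sertoli cell or 5 measured multiciliated epithelium markers was called by limma (medians −0.07, 0.07 and 0.04), and 1, 0 and 0 of them had an unadjusted p under 0.05. What part the erythrocyte and fibroblast markers have in the result was not tested.

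**Figure D4:**
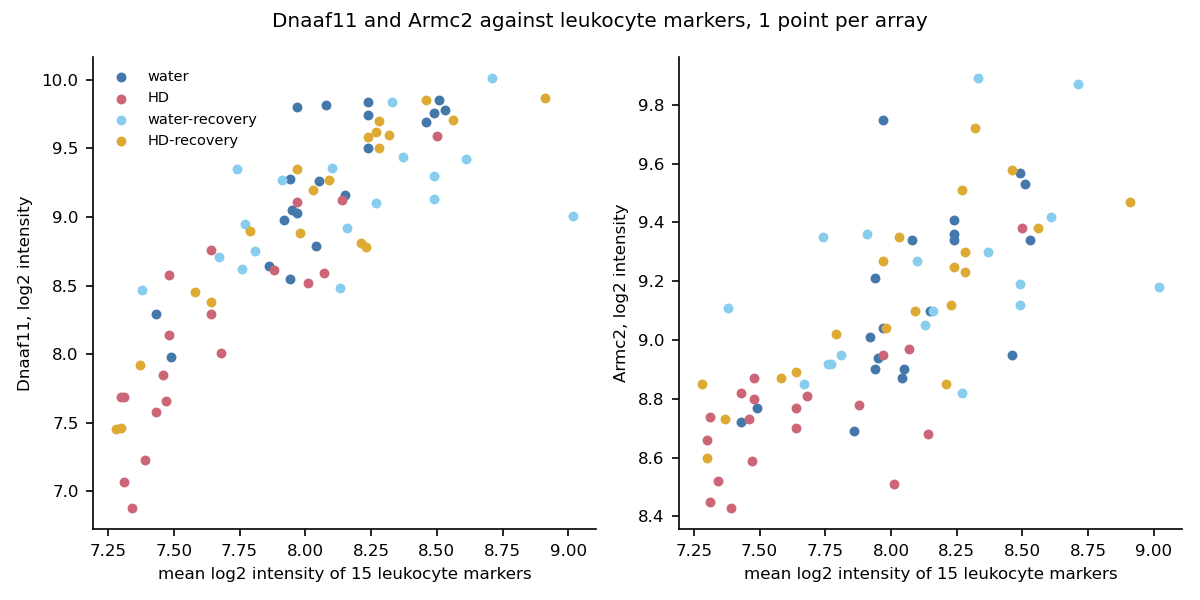
Log2 intensity of Dnaaf11 and of Armc2 (vertical axes) against the mean log2 intensity of 15 leukocyte markers (horizontal axes), with 1 point per array coloured by group. Dnaaf11 climbs with the marker mean in all 4 groups (r from 0.57 to 0.92), and many HD arrays lie at the lower left of both panels.

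Other genes of the same machinery, listed by function and not by symbol, showed no called change. Of 14 measured genes of dynein assembly and docking (of 19 listed) none passed, 11 of the differences were positive and the median was 0.06, and 3 had an unadjusted p under 0.05, all higher. Of 18 measured genes of other axoneme structures (of 28 listed) none passed, 15 were positive, the median was 0.12 and 4 had an unadjusted p under 0.05, all higher. Of 7 measured transcription factors of ciliary genes (of 9 listed) none passed, and 3 were lower and 1 higher at an unadjusted p under 0.05.

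After 3 months of recovery none of the 45 transcripts differed between the HD-recovery and water-recovery arrays by limma, as was the case for all probe sets (0% called). At an unadjusted p under 0.05, 8 passed, 1 lower and 7 higher, where 4.51% of all probe sets did. Dnaaf11 had a level of 7.45, 9.23 and 9.87 in the HD-recovery group. In the water-recovery group it was 8.47, 9.12 and 10.01. The ranges overlapped, and 9 of 20 HD-recovery arrays lay below the water-recovery median, although 5 lay below every water-recovery array. The difference was −0.10 (95% interval −0.49 to 0.28), that of Armc2 −0.05 (−0.24 to 0.14) and that of Dnaaf4 −0.02 (−0.16 to 0.12). The smallest p was that of Cfap107, a protein of the doublet wall, at −0.14 (SE 0.04, q = 0.72), with 19 of 20 HD-recovery arrays below the water-recovery median. Cfap119 was at 0.21 (SE 0.07, q = 0.74), Cfap206 at 0.29 (SE 0.10, q = 0.75) and Rsph10b, a radial spoke gene, at 0.14 (SE 0.05, q = 0.77). Without the arrays that stood apart 11 were called, 1 lower and 10 higher, where 13.1% of all probe sets were.

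Set against the HD arrays, the HD-recovery arrays had 1 called transcript of the 45, Armc2, which was higher, where 0.0308% of all probe sets were called. This comparison shares the HD arrays with the one against water, and recovery cannot be told apart from age and time of necropsy in it. The level of Armc2 was 8.60, 9.17 and 9.72 in the HD-recovery group, and 18 of 20 arrays lay above the HD median, 4 of them above every HD array. Its difference, HD-recovery minus HD, was 0.41 (SE 0.08, q = 0.043 by limma), but the call was kept in only 12 of 39 fits without 1 array. Dnaaf11 had the largest difference, 0.86 (SE 0.23, q = 0.16), with 17 of 20 arrays above the HD median and 6 above every HD array, and it was called in 2 of the 39 fits (without HD replicate 14 and without HD-recovery replicate 9). At an unadjusted p under 0.05, 12 passed, 3 lower and 9 higher, where 7.55% of all probe sets did. Rsph3 had a difference of 0.26 (SE 0.09, q = 0.31). Drc1 had −0.31 (SE 0.11, q = 0.42), Cfap206 −0.57 (SE 0.22, q = 0.47) and Cfap52, a protein inside the doublets, −0.16 (SE 0.08, q = 0.66). Of the 15 leukocyte markers, 13 were higher in the HD-recovery arrays at an unadjusted p under 0.05 and none was called (median 0.42). With their mean as a covariate the Armc2 difference was 0.22 (SE 0.06, q = 0.029 by limma), where 6.2% of all probe sets were called. Among replicates 11 to 20 alone 15 of the 45 were called, where 30.2% of all probe sets were, and among replicates 1 to 10 alone none was.

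The same interval in control rats gave no call. In water-recovery against water arrays none of the 45 passed by limma (0% of all probe sets), and 5 had an unadjusted p under 0.05, 4 lower and 1 higher, where 6.52% of all probe sets did. The largest of them was Cfap206 at −0.27 (SE 0.12, q = 0.64). Rsph1, of the spoke head, was at −0.16 (SE 0.05, q = 0.64), Dnai3, an inner arm intermediate chain, at −0.18 (SE 0.07, q = 0.64) and Cfap107 at 0.10 (SE 0.04, q = 0.64). Among replicates 1 to 10 alone 16 of the 45 were called, 13 of them lower, where 33% of all probe sets were, and among replicates 11 to 20 none was. The Dnaaf11 mean was 9.49 for water replicates 1 to 10 and 8.99 for 11 to 20, while the corresponding water-recovery means were 8.90 and 9.34, so rats of a group differed by replicate number. What the numbers stand for is not given in the labels.

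The change of the HD effect between exposure and recovery was tested as an interaction, (HD minus water) minus (HD-recovery minus water-recovery). None of the 45 passed by limma (0% of all probe sets), and 7 had an unadjusted p under 0.05, 5 lower and 2 higher, where 3.38% of all probe sets did. Dnaaf11 had the largest term, −0.98 (SE 0.28, q = 0.90), and Armc2 had −0.35 (SE 0.13) and Dnaaf4 −0.23 (SE 0.09), both with a q of 1. With every array at equal weight and no covariate, the effect of HD on these transcripts was thus not shown to differ between the end of exposure and the end of recovery, but that depended on the setting. Without the arrays that stood apart 21 of the 45 passed, 14 lower and 7 higher, where 56.8% of all probe sets did. The terms were then −1.53 for Dnaaf11 (q = 8.5e-05), −0.52 for Armc2 (q = 0.00056) and −0.31 for Dnaaf4 (q = 0.0039), and all 3 also passed with array weights, where 33.7% of all probe sets did. With the arrays' first component in the fit, Dnaaf11 (−0.98, q = 8.6e-05), Armc2 (−0.35, q = 0.03) and Rsph3 passed by limma, where 1.22% of all probe sets did.

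Among the 4 groups, Dnaaf11 had the order of means water (9.24), water-recovery (9.12), HD-recovery (9.01) and HD (8.16). Between neighbours among the first 3 no difference passed by limma (−0.12 with q = 0.77 and −0.10 with q = 1). The step from HD-recovery to HD did not pass either (q = 0.16). The order for Armc2 was water-recovery (9.20), HD-recovery (9.16), water (9.14) and HD (8.74), and for Dnaaf4 it was water (7.35), water-recovery (7.26), HD-recovery (7.24) and HD (7.11). For 12 of the 45 genes the HD group had the lowest mean, and for 24 it had the highest, while the water-recovery group had the lowest mean for 23.

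Dnaaf11 and Armc2 varied together among rats of the same treatment. Pearson r was 0.73 (HD), 0.84 (water), 0.88 (HD-recovery) and 0.84 (water-recovery), and Spearman rho was 0.60, 0.86, 0.88 and 0.81 (permutation p adjusted over 12 relations of at most 0.0011 for r and 0.015 for rho, two-sided, where the smallest unadjusted p that 100000 permutations can give is 1e-05). Without the 2 arrays farthest from the median of Dnaaf11, r was 0.58, 0.83, 0.88 and 0.68. Dnaaf11 and Dnaaf4 had r of 0.59, 0.66, 0.45 and 0.74 and rho of 0.53, 0.66, 0.54 and 0.72 (adjusted permutation p for r of 0.011, 0.003, 0.053 and 0.0013), and without the 2 farthest arrays r was 0.30, 0.71, 0.65 and 0.60. In the HD group, r was 0.48 without the arrays that stood apart. Dnaaf4 and Armc2 had r of 0.45, 0.64, 0.57 and 0.66 and rho of 0.25, 0.56, 0.54 and 0.57 (adjusted permutation p for r of 0.059, 0.0041, 0.011 and 0.0057), with 0.17, 0.57, 0.43 and 0.47 without the 2 farthest arrays. All these transcripts share arrays and thus RNA quality and cell makeup.

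Over all 77 arrays, with group means removed, Armc2 was most like Dnaaf11 of the other 44 genes (r = 0.79), followed by Dnai1 (0.77), Cfap141 (0.76), Cfap300 (0.76), Dnaaf9 (0.74) and Rsph9 (0.67). Cfap45 (−0.67) and Dnah11 (−0.57) were the most opposed, and 26 of the 44 had a positive r. The genes most like Dnaaf11 were also those that followed the leukocyte mean, from r = 0.80 for Dnaaf11 to −0.69 for Cfap45. This ranking was made after the data had been seen and has no test. Over the 990 pairs of the 45 genes the median r was 0.33 and 769 were positive, and 51.0% of the variance of the genes lay on 1 component. Leaving out HD replicate 5 gave a median r of 0.23, and leaving out all 10 arrays that stood apart gave 0.20.

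**Figure D5:**
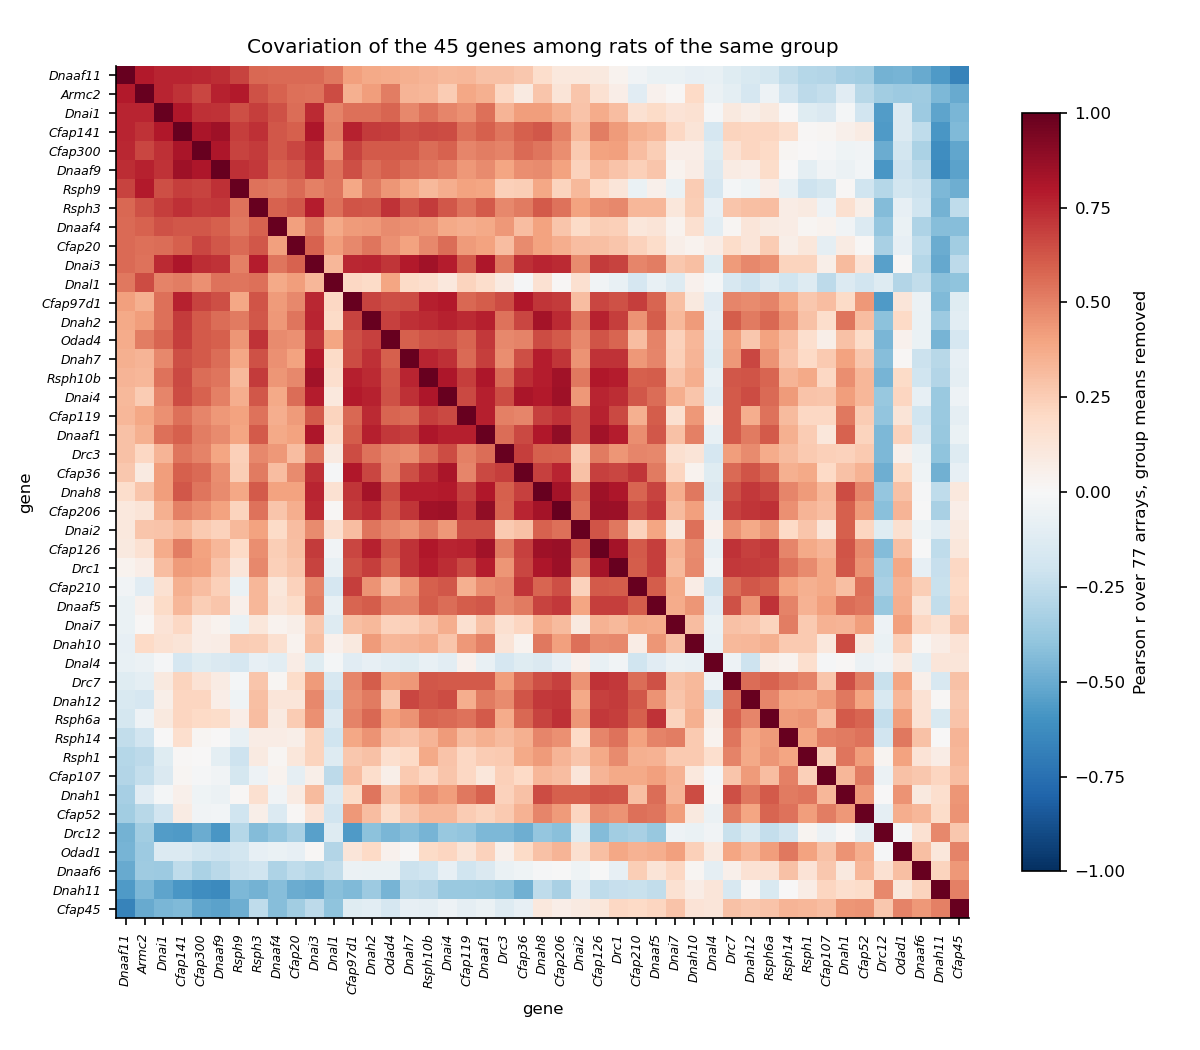
Pearson r (colour scale, −1 to 1) between each pair of the 45 genes over 77 arrays with group means removed, with genes on both axes ordered by their r with Dnaaf11. A block at the upper left holds Dnaaf11, Armc2, Dnai1, Cfap141, Cfap300, Dnaaf9 and Rsph9, a larger block in the middle holds genes such as Cfap206 and Drc1 that have r near 0 with Dnaaf11, and Dnah11 and Cfap45 are opposed at the lower edge.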

How the data were processed

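Sperm RNA of 77 rats was hybridized to Affymetrix Rat Gene 1.0 ST arrays. The authors deposited 1 table of values per probe set and array, taken from their range (2.51 to 14.63) to be normalized log2 intensities. How the normalization was done is not given in the sources used here. Probe sets were named by the platform annotation (15310 with 1 symbol, 323 with several, 13581 with none). Groups came from the labels. Each compared pair of groups was fitted with limma 3.58.1 in R 4.3.3 over all 29214 probe sets with no filter. Storey q-values (own implementation) were computed from the p-values. For HD and HD-recovery against their own water groups this follows the methods. The comparisons of recovery with exposure groups and the interaction were added here. Transcripts at q under 0.05 were called. The interaction was fitted over all 4 groups. The fits were tested on simulated data with independent noise for each probe set. Those data lacked the variation that real probe sets share and the arrays that stood apart. The simulation thus cannot show how the fits behave with either. Correlations had 100000 permutations (Python 3.11.15, numpy 2.4.6). The number of arrays limits the precision. The rats are biological replicates by the labels, and no arrays were identical.

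The text names members called in any comparison, Dnaaf11, Dnaaf4 and Armc2, the 3 members with the smallest p in each direction of each comparison, the member with the smallest p of each role, and the members with the largest and smallest spread. Genes named for other reasons are marked. The members, gene lists and tests were chosen with earlier results of these data known. Alternatives were another adjustment, 2 other scalings, array weights, the first principal component, all groups in 1 fit, the arrays that stood apart, the replicate number as a block or split at 10, dim probe sets (mean under 6.1), all probe sets of a gene, and each array left out in turn. A leukocyte covariate was added after the data had been seen. Of the 45 genes, 38 had a promoter in the RefSeq table.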

Additional observations from a re-analysis of the deposited data

How the results depend on the processing

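The 3 transcripts called between HD and water arrays kept their sign under every alternative run. The number of transcripts called, with the share of all probe sets called after it, was 4 with quantile normalization (1.2%) and 2 with centred medians (0.216%). It was 2 with the replicate block (0.534%) and 2 with the leukocyte covariate (9.91%). Array weights gave 19 (11 lower, 17.7%), the first principal component 11 (5%) and leaving out arrays standing apart 21 (30.2%). It was 0 in replicates 1 to 10 or 11 to 20 alone. The fits without 1 array gave from 2 to 8, with 8 (1.13%) reached only without HD replicate 5. For HD-recovery against water-recovery it was 4 with array weights (1.8%), 11 without arrays standing apart (13.1%), 1 with the leukocyte covariate (1.11%) and 0 otherwise. For HD-recovery against HD (1) it was 0 with centred medians, 21 with array weights (44.5%), 7 with the first component (3.09%), 2 with all groups in 1 fit (0.154%), 23 without arrays standing apart (57.9%), 0 in replicates 1 to 10, 15 in replicates 11 to 20 (30.2%), and 0 to 2 with each array left out. For water-recovery against water (0) it was 1 with the first component (1.23%), 16 in replicates 1 to 10 (33%) and 1 with the leukocyte covariate (1.48%). For the interaction (0) array weights gave 17 (33.7%), the first component 3 (1.22%) and leaving out arrays standing apart 21 (56.8%). Benjamini-Hochberg adjustment gave the same count in each of the 5 comparisons. The cause was not tested.

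Of the 45 HD minus water differences, 11 changed sign in replicates 11 to 20 and 10 with the leukocyte covariate. Fits without 1 array aside, at most 4 did so in any other setting. Among the 18 named genes these were Drc12 (0.02 with array weights, 0.06 without arrays standing apart, 0.11 in replicates 11 to 20), Dnah11 (0.04, 0.06 and, in replicates 1 to 10, 0.02), Odad4 (0.00 in replicates 1 to 10, 0.02 with the leukocyte covariate), and Cfap107 (−0.03) and Dnai3 (0.02) with that covariate, not called at those values. In the fits without 1 array, at least 40 of the 45 differences kept their sign, with 40 reached without HD replicate 5. Drc12 kept its sign in 38 of those 39 fits, and Odad4 and Dnah11 each in 29. Dnai3 was called with array weights (−0.19, q = 0.04). Dnaaf4 lost its call with centred medians (q = 0.12) and the replicate block (q = 0.093). The r of Dnaaf4 with Armc2 was 0.09 in the HD and 0.46 in the water-recovery group without arrays standing apart, and that of Dnaaf11 with Dnaaf4 was 0.67 in the HD-recovery group.

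The labels give the groups shared replicate numbers, but these were not taken to pair the rats. Same-numbered arrays deviated together (r over 0.1) in 8 of 19 pairs for HD and water and 10 of 19 for HD-recovery and HD. They did so in 8 of 18 pairs for HD-recovery and water-recovery and 6 of 18 for water-recovery and water. The median r of such pairs was at most 0.19. With the replicate block 2 of the 45 were called for HD against water, 1 for HD-recovery against HD, and 0 in the other comparisons. Leaving out HD replicate 5 alone gave 8 calls for HD against water in place of 3. The other fits without 1 array gave 2 or 3 there, and 0 to 2 for HD-recovery against HD.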
